A study of Rattus norvegicus with 6 samples.

Results

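Leptin, adiponectin, resistin and adipsin are proteins that white fat cells secrete, and their transcripts were measured here in the leg muscle of newborn rats together with other genes of the white adipocyte. The list held 10 genes, namely the secreted proteins *Lep*, *Adipoq*, *Retn* and *Cfd*, the genes of the lipid droplet and of lipolysis *Plin1*, *Lipe*, *Fabp4* and *Hcar1*, and the activin receptor *Acvr1c* and the transcription factor *Cebpa*. Of these, 9 had a row on the array, 1 row each, among 26299 genes and unnamed transcripts in all. *Plin1* had no matched row and was not analysed here. *Hcar1* was read from the row that the study's supplement lists under the older symbol *Gpr81*. The genes were chosen with the difference between the birth weight groups already known, and *Lep*, *Hcar1* and *Acvr1c* stand in the study's own list of downregulated genes. Their differences between the groups are therefore a description and were not tested.

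The RNA came from skeletal muscle of 6 male Wistar rats aged 1 day, 3 of lower birth weight (LBW, percentiles 5 to 25) and 3 of average birth weight (ABW, percentiles 50 to 75 by the treatment protocol and 25 to 75 by the sample characteristics). None of the pups was treated, and the groups stand for natural variation in birth weight, not for an experimental growth restriction. The soleus and gastrocnemius were combined, and which pups shared a litter is not stated in the labels. Each pup has 1 single-colour NimbleGen array, whose deposited values are normalized log2 signals, so that a difference of 1 is a 2-fold change.

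White adipocytes store triglyceride in a single large droplet and release it as fatty acids and glycerol when lipolysis is stimulated. They also secrete hormones, of which leptin reports the size of the fat stores to the brain and adiponectin raises fatty acid oxidation and insulin sensitivity in muscle and liver. Fat cells lie between the fibres and around the muscle, and RNA from a whole muscle contains theirs. In such RNA, fewer fat cells and less RNA per fat cell cannot be told apart.

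The stretches before the 4 secreted genes are shown because the comparison of the secreted genes with the lipid genes is the one the results turn on. They are RefSeq sequences (build GRCr8) that end before the first annotated base of the gene. The stretch of *Lep* is chr4:58626288-58626528 (plus strand), that of *Adipoq* chr11:91240245-91240419 (minus strand), that of *Retn* chr12:6508524-6508652 (plus strand) and that of *Cfd* chr7:10465497-10465746 (minus strand). Capitals mark matches, on either strand, to the TATA box (TATAAA), the core bound by C/EBP factors (TTNNGNAA), the core site of nuclear receptors (AGGTCA), the direct repeat of that site spaced by 1 base to which Pparg with Rxra binds (1 mismatch allowed, so that it overlaps the core site), the E-box (CACGTG), the GC box (GGGCGG) or the CCAAT box.
Lep: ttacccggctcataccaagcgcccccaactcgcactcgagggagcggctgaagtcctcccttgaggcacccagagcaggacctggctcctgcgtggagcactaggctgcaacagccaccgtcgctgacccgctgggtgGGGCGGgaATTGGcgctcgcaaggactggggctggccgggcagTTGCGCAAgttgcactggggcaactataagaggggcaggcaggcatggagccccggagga
Adipoq: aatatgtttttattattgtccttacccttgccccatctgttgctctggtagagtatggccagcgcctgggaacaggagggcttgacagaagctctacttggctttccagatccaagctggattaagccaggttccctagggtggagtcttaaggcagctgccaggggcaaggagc
Retn: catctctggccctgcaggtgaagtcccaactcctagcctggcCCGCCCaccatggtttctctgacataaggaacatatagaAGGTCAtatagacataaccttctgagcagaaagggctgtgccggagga
Cfd: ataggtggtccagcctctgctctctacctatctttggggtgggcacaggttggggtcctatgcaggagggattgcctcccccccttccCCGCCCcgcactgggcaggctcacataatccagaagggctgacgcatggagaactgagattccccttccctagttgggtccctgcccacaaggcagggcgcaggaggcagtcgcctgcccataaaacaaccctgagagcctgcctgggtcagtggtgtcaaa

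Windows from 250 bases before to 50 bases after the start were given for 7 of the 9 genes, and 33469 windows were searched in all. The C/EBP core was found in *Lep*, 69 to 62 bases before the start, and in *Retn*, and 41.3% of all windows hold it. *Retn* was the only one of the 7 with the core site of nuclear receptors, at 2 positions, and 16.2% of all windows hold that site. The direct repeat was in 0 of the 7 windows and in 0.439% of all. A GC box was in 5 of the 7 (33.1% of all windows), a CCAAT box in *Lep* and *Adipoq* (37.5%), a TATA box in *Cebpa* (14.2%) and an E-box in 0 (6.42%). The CCAAT boxes of *Adipoq*, the C/EBP core of *Retn* and its site nearest to the start lie in bases not printed above. These are matches of letters, and no binding was measured on the arrays. For *Adipoq*, the paper predicted response elements of Pparg farther upstream than these windows reach. By chromatin immunoprecipitation it reported lower Pparg binding there in LBW muscle. The paper also reported lower adiponectin in LBW muscle by qRT-PCR and western blot. For *Lep* and *Pparg* it reported lower mRNA by qRT-PCR on the RNA used for the arrays.

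The medians of the 6 arrays lay between 8.70 and 8.76. The muscle genes *Acta1* (15.15 to 15.41) and *Ckm* (14.83 to 15.06) were near the highest values of the arrays (15.18 to 15.49) in every pup. By limma, 1131 of the 26419 transcripts (4.28%) passed the threshold of the study, an unadjusted p under 0.05 with a fold change of at least 1.5, of which 1.9% were lower and 2.38% higher in LBW. An unadjusted p under 0.05 was found for 3270 transcripts (12.4%), and an adjusted p (Benjamini-Hochberg) under 0.05 for 0 by limma and 0 by the methods' test. Without LBW 2 the adjusted count by limma was 126. The array of LBW 2 correlated more closely with ABW 1 (r = 0.9925) than with LBW 1 (0.9913) or LBW 3 (0.9872), and the results that turn on a single pup are given with and without it.

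The secreted proteins were lower in LBW than in ABW muscle, with log2 differences from -1.57 to -0.39. *Lep*, the hormone of the fat stores, had signals of 5.91, 5.96 and 5.75 in LBW 1, 2 and 3, and of 6.05, 8.09 and 8.18 in ABW 1, 2 and 3. ABW 2 and ABW 3 stood apart from the other 4 pups, whose signals all lay below the lower quartiles of the arrays (6.17 to 6.23). The groups did not overlap, but ABW 1 exceeded the highest LBW pup by less than 1 SD of either group. The LBW mean was 5.87 ± 0.11 (SD, n = 3) and the ABW mean 7.44 ± 1.21 (SD, n = 3), a log2 difference of -1.57 (SE 0.55) or a fold change of 0.337. This difference was at percentile 0.0418 of all genes, counted from the most negative. Without ABW 1 it was -2.26 and without ABW 3 it was -1.20. The files give no detection call, so how far the low *Lep* signals lie above background was not tested.

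*Adipoq*, which encodes adiponectin, had signals of 12.83, 13.02 and 11.56 in LBW 1, 2 and 3, and of 12.91, 13.66 and 13.68 in ABW 1, 2 and 3. LBW 2 was above ABW 1, so that the groups overlapped, and LBW 3 was the lowest pup by more than 1 log2 unit. The LBW mean was 12.47 ± 0.79 (SD, n = 3) and the ABW mean 13.41 ± 0.44 (SD, n = 3), a log2 difference of -0.94 (SE 0.42) or a fold change of 0.521. The difference was at percentile 0.513 of all genes. Leaving out LBW 3 gave -0.49 and leaving out LBW 2 gave -1.22.

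*Retn* encodes resistin, a cysteine-rich hormone that in rodents comes mainly from fat cells. Its signals were 12.26, 12.32 and 9.63 in LBW 1, 2 and 3, and 12.17, 13.26 and 12.93 in ABW 1, 2 and 3. LBW 3 lay far below all other pups, and ABW 1 was below LBW 1 and LBW 2. With 3.63 log2 units between the highest and the lowest pup, *Retn* had the widest range of the 9 genes. The LBW mean was 11.40 ± 1.53 (SD, n = 3) and the ABW mean 12.79 ± 0.56 (SD, n = 3), a log2 difference of -1.38 (SE 0.74). The fold change of *Retn* was 0.383, at percentile 0.0722 of all genes, but without LBW 3 the log2 difference was -0.50.

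*Cfd* encodes adipsin (complement factor D), a serine protease of the alternative complement pathway. It had signals of 11.69, 11.52 and 10.91 in LBW 1, 2 and 3, and of 10.93, 12.22 and 12.15 in ABW 1, 2 and 3. Here ABW 1 was nearly as low as LBW 3, and both of the other LBW pups were above ABW 1. The log2 difference of -0.39 (SE 0.39) was about the size of its standard error, and it ranged from -0.81 without ABW 1 to -0.16 without LBW 3. In all 4 secreted genes ABW 2 and ABW 3 were the highest of the 6 pups and LBW 3 was the lowest.

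**Figure D1:**
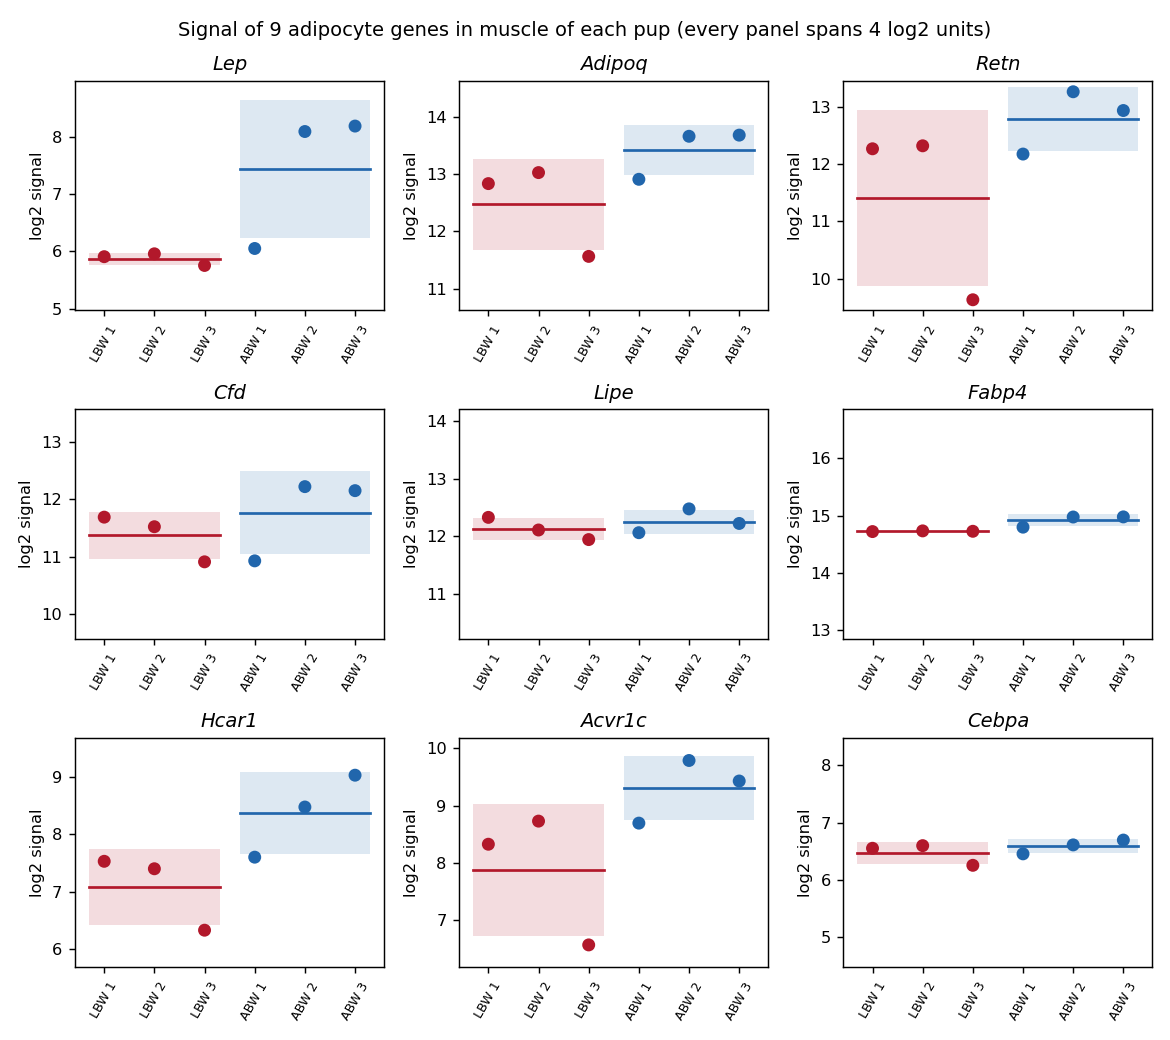
Log2 signal of the 9 genes in each pup (points; LBW red, ABW blue), with the group mean (line) and 1 SD on either side (band, n = 3). ABW 1 is the lowest ABW pup in all 9 panels, and LBW 3 is the lowest of the 6 pups in all panels except that of *Fabp4*.

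Of the lipid droplet and lipolysis genes, *Hcar1* had a log2 difference of the size seen for the hormones, whereas *Fabp4* and *Lipe* differed little. *Hcar1* encodes the lactate receptor through which fat cells reduce lipolysis. Its signals were 7.53, 7.40 and 6.33 in LBW 1, 2 and 3, and 7.60, 8.48 and 9.03 in ABW 1, 2 and 3. The groups did not overlap, although LBW 1 and ABW 1 were close to each other. The LBW mean was 7.09 ± 0.66 (SD, n = 3) and the ABW mean 8.37 ± 0.72 (SD, n = 3), a log2 difference of -1.28 (SE 0.45) or a fold change of 0.411. It ranged from -1.67 without ABW 1 to -0.91 without LBW 3.

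*Lipe* encodes hormone-sensitive lipase, which splits diacylglycerol during lipolysis. It had signals of 12.33, 12.11 and 11.94 in LBW 1, 2 and 3, and of 12.06, 12.48 and 12.22 in ABW 1, 2 and 3. LBW 1 was above ABW 1 and ABW 3, so that only ABW 2 exceeded all LBW pups. The log2 difference of -0.13 (SE 0.15) was smaller than its standard error, and without ABW 2 it was -0.02.

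*Fabp4* encodes the fatty acid carrier of the adipocyte cytosol. Its signals were 14.72, 14.73 and 14.73 in LBW 1, 2 and 3, and 14.80, 14.98 and 14.98 in ABW 1, 2 and 3. The LBW pups were nearly identical and all lay below the ABW pups. The log2 difference of *Fabp4* was -0.19 (SE 0.088), or a fold change of 0.877. Its signal ranked at percentile 99.8 of all genes, close to the highest values of the arrays, and whether the scale is compressed there was not tested.

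*Acvr1c* (also named Alk7) is a type I receptor of the activin family, which in fat cells restrains lipolysis. Its signals were 8.33, 8.73 and 6.57 in LBW 1, 2 and 3, and 8.70, 9.79 and 9.43 in ABW 1, 2 and 3. LBW 2 and ABW 1 had nearly the same signal, and LBW 3 was the lowest by a wide margin. The LBW mean was 7.88 ± 1.15 (SD, n = 3) and the ABW mean 9.31 ± 0.56 (SD, n = 3), a log2 difference of -1.43 (SE 0.58) or a fold change of 0.372. Without LBW 3 the difference was -0.78 and without LBW 2 it was -1.85.

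*Cebpa* encodes a transcription factor that together with Pparg drives the late steps of fat cell differentiation. It had signals of 6.55, 6.60 and 6.25 in LBW 1, 2 and 3, and of 6.46, 6.61 and 6.69 in ABW 1, 2 and 3. The order of the pups resembled that of the other genes, with LBW 3 lowest, but all 6 lay within 0.44 log2 units. The log2 difference of -0.12 (SE 0.13) was within its standard error, and without LBW 3 it was -0.01. The signal of *Cebpa* ranked at percentile 29.8 of all genes, and how far it lies above background was not tested.

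All 9 genes had a lower mean in LBW pups, as did 55.6% of all genes and unnamed transcripts. Their median log2 difference was -0.94, beside -0.02 over all genes, and without LBW 3 it was -0.49. Past the threshold of the study and lower in LBW were 3 of the 9 (*Lep*, *Hcar1* and *Acvr1c*), and of all genes 1.89% were, while 2.38% were higher. Without overlap of the groups, 3 of the 9 (*Lep*, *Fabp4* and *Hcar1*) were lower in LBW, and of all genes 10.1% were lower and 7.27% higher. Since the genes were chosen on this contrast, nothing is read from these counts.

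The order of the pups within the groups was alike in most of the 9 genes. ABW 1 was the lowest ABW pup in all 9, which holds for 40.5% of all genes. LBW 3 was the lowest LBW pup in 8 of the 9 (38.1% of all genes) and the lowest of all 6 pups in the same 8 (23.2%), the exception being *Fabp4*. With each gene centred and divided by its SD over the pups, the mean over the 9 genes was -0.09, -0.15 and -1.42 in LBW 1, 2 and 3, and -0.33, 1.04 and 0.96 in ABW 1, 2 and 3. By this mean ABW 1 lay below LBW 1 and LBW 2, so that the groups overlapped.

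**Figure D2:**
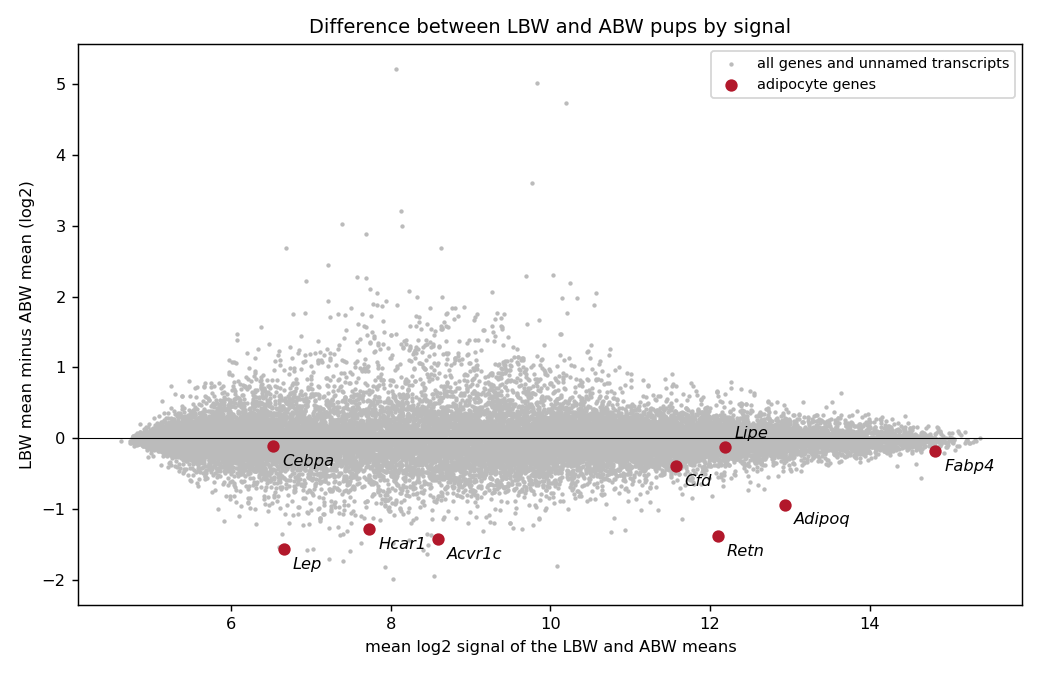
Difference between the LBW and ABW means (log2, y axis) against the mean signal (log2, x axis) for all 26299 genes and unnamed transcripts (grey) and the 9 adipocyte genes (red). *Lep*, *Acvr1c*, *Retn*, *Hcar1* and *Adipoq* lie between -1.57 and -0.94, and *Cfd*, *Fabp4*, *Lipe* and *Cebpa* between -0.39 and -0.12.

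The secreted genes had a median log2 difference of -1.16 (4 genes) and the lipid droplet and lipolysis genes one of -0.19 (3 genes), so that the distance between the medians was -0.972. The lipid median is the value of *Fabp4*, whose signal was close to the highest of the arrays, and lies between *Hcar1* (-1.28) and *Lipe* (-0.13). The distance was not tested, because genes are not replicates and were read in the same 6 pups. Relative to the mean of the ABW pups, the median of the secreted genes was -0.55, -0.43 and -1.77 in LBW 1, 2 and 3, and -0.73, 0.46 and 0.32 in ABW 1, 2 and 3. The median of the lipid genes was -0.20, -0.18 and -0.31 in LBW 1, 2 and 3, and -0.19, 0.11 and 0.06 in ABW 1, 2 and 3. By these medians ABW 1 lay among the LBW pups in both sets, and the secreted genes covered the wider range. In the single genes *Lep*, *Fabp4* and *Hcar1*, however, ABW 1 was above every LBW pup. The median of the lipid genes falls on different genes in different pups. Without LBW 3 the distance between the medians was -0.30, and the median of the secreted genes was -0.49. *Hcar1*, with its difference of -1.28, was nearer to the hormones than to *Lipe* and *Fabp4*, and without it the distance was -1.003.

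Over the 6 pups, the Pearson correlation of each gene with the mean standardized profile of the other 8 was lowest for *Lipe* (0.77) and *Fabp4* (0.81). It was 0.85 for *Lep*, 0.89 for *Cfd* and *Cebpa*, 0.91 for *Retn*, 0.94 for *Acvr1c* and 0.96 for *Hcar1* and *Adipoq*. These values describe 6 arrays that share the difference between the groups and a common normalization. Among 1089 other named genes whose signals spanned at least 1 log2 unit, the profiles most like that of the 9 were those of *Trarg1* (0.994), *Fez1* (0.990), *Mgst1* (0.985), *Cybb* and *Slc40a1* (both 0.983), *Gpat3* (0.982), *Cnr2* (0.980) and *Ccl24* (0.978). *Trarg1*, a regulator of the trafficking of the glucose transporter Glut4, had signals of 11.55, 11.54 and 10.72 in LBW 1, 2 and 3, and of 11.28, 12.39 and 12.25 in ABW 1, 2 and 3. As in *Retn*, LBW 3 was lowest and ABW 1 was below LBW 1 and LBW 2.

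Other genes of fat cells were taken from 7 lists by their known roles, 111 genes in all, of which 87 had a row. By limma 11 of the 87 (12.6%) passed the threshold of the study, where 4.27% of all genes did, and 9 of the 11 fell while 2 rose in LBW. With adjustment over all genes 0 of the 87 passed by limma, and 17 had an unadjusted p under 0.05, where 12.4% of all transcripts had. The groups did not overlap, with LBW lower, in 11.5% of the 87, close to the 10.1% of all genes. The count of 11 was 5 without ABW 2 and 6 without ABW 3, and *Ffar2*, *Hcar2* and *Pparg* were the 3 genes that passed with each pup left out in turn. *Pparg* and *Adrb3* are, like *Lep*, in the study's list of downregulated genes, so that they are no independent evidence of its direction.

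Among 13 receptors and signalling genes of lipolysis, which include the closest relative of *Hcar1*, 10 had a lower LBW mean, as did 55.6% of all genes. Of these, 3 passed the threshold of the study, where 1.89% of all genes passed and were lower. *Hcar2*, the receptor of niacin and ketone bodies, had signals of 6.62, 6.68 and 6.76 in LBW 1, 2 and 3, and of 7.01, 8.06 and 7.82 in ABW 1, 2 and 3. It fell by 0.95 (SE 0.26, limma adjusted p = 0.292), and cross-hybridization with *Hcar1* was not tested. *Ffar2*, a receptor of short-chain fatty acids, fell by 1.01 (SE 0.15, limma adjusted p = 0.214), from 7.51, 7.71 and 8.03 in ABW 1, 2 and 3 to 6.61, 6.84 and 6.78 in LBW 1, 2 and 3. In contrast to *Lep*, ABW 1 was here close to the other ABW pups. *Adrb3*, the adrenergic receptor that stimulates lipolysis in fat cells, fell by 1.14 (SE 0.45, limma adjusted p = 0.384), with LBW 2 (7.07) above ABW 1 (6.88), and lost its call when LBW 1, LBW 3, ABW 2 or ABW 3 was left out.

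The other lipid droplet and lipolysis genes were lower in LBW in 10 of 10 cases, where 55.6% of all genes were. Their median was -0.28, beside -0.19 for *Lipe*, *Fabp4* and *Hcar1*, and some, such as *Fabp5* (-0.02), were close to no difference. *G0s2*, an inhibitor of adipose triglyceride lipase, fell by 0.72 (SE 0.26, limma adjusted p = 0.360) but kept its call only without LBW 1 or ABW 1. *Aqp7*, the channel through which glycerol leaves the fat cell, fell by 0.65 (SE 0.20, limma adjusted p = 0.315) and lost its call without LBW 1, LBW 3 or ABW 2. *Cidec*, which enlarges lipid droplets, had a log2 difference of -1.13 (SE 0.74) that did not pass. Its signals were 11.01, 11.09 and 8.59 in LBW 1, 2 and 3, and 10.55, 12.08 and 11.44 in ABW 1, 2 and 3, the same order at the low end as in *Retn*. Of the genes for fatty acid uptake and triglyceride synthesis, 16 of 18 were lower in LBW (median -0.15), beside 55.6% of all genes. By limma 0 of the 18 passed, also at an unadjusted p under 0.05 alone. *Gpd1*, which supplies glycerol phosphate, was at -0.87 (SE 0.63) and *Pck1*, an enzyme of glyceroneogenesis, at -0.78 (SE 0.93).

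Among the transcription factors of adipogenesis, which act with *Cebpa*, 2 of 12 passed the threshold with LBW lower and 1 with LBW higher. Of all genes, 1.89% passed and were lower and 2.38% passed and were higher. By mean, 6 of the 12 were lower and 6 higher in LBW, with a median of 0.00, where 55.6% of all genes were lower. *Pparg*, the receptor that governs fat cell differentiation, had signals of 9.12, 8.86 and 8.70 in LBW 1, 2 and 3, and of 9.26, 10.60 and 10.42 in ABW 1, 2 and 3, and fell by 1.20 (SE 0.35, limma adjusted p = 0.302). Like *Lep*, it was high in ABW 2 and ABW 3 and little higher in ABW 1 than in the LBW pups. *Nr1h3*, the liver X receptor of oxysterols, fell by 0.65 (SE 0.22, limma adjusted p = 0.331) and lost its call without LBW 1, ABW 2 or ABW 3. *Cebpd*, an early factor of adipogenesis that glucocorticoids and cytokines also induce, rose by 0.73 (SE 0.21, limma adjusted p = 0.302) and lost its call without LBW 2.

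The other adipokines had a median difference of 0.00, beside -1.16 for the 4 secreted genes above (13 genes). Of these, the chemokine *Ccl2* fell by 0.67 (SE 0.26, limma adjusted p = 0.378) and kept its call only without LBW 3. Of the receptors of adipokines 1 of 10 passed, where 4.27% of all genes did. By limma 3 of the 10 had an unadjusted p under 0.05, as had 12.4% of all transcripts. The gene that passed was *C3ar1*, the receptor of the complement fragment C3a. *C3ar1* fell by 0.69 (SE 0.27, limma adjusted p = 0.377) and kept its call only without LBW 3 or ABW 1. *Cmklr1* (-0.46, SE 0.12, limma adjusted p = 0.289) and *Aplnr* (-0.41, SE 0.10, limma adjusted p = 0.275) were lower in LBW without overlap of the groups. Both had an unadjusted p under 0.05 by limma but did not pass the threshold. The receptors of leptin (*Lepr*, -0.07, SE 0.13) and of adiponectin (*Adipor1*, -0.12, SE 0.091, and *Adipor2*, -0.22, SE 0.14) did not pass either. By mean, 6 of the 10 receptors were lower and 4 higher in LBW. Of the activin receptors, ligands and Smad proteins that act with *Acvr1c*, 0 of 11 passed by limma (4.27% of all genes). An unadjusted p under 0.05 was found for 3 of the 11 by limma (12.4% of all transcripts). Of the 11, 9 were higher in LBW, where 55.6% of all genes were lower.

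**Figure D3:**
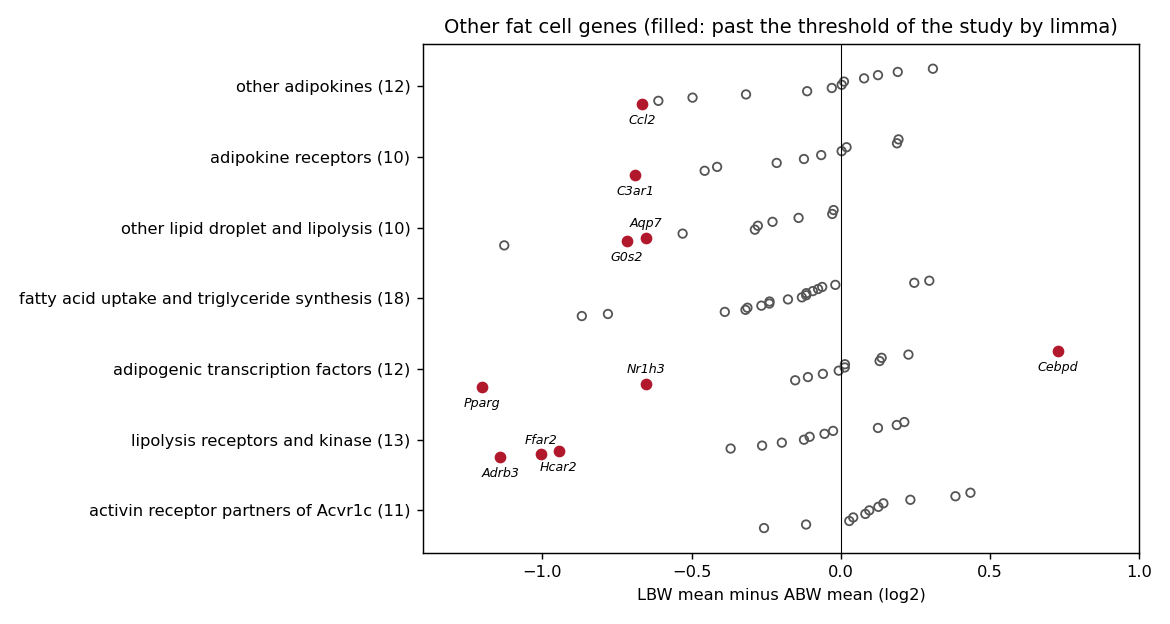
Log2 difference between LBW and ABW means (x axis) for 86 of the 87 other genes of fat cells in 7 lists (number of genes in parentheses); filled points with a symbol passed the threshold of the study by limma. Of the 10 filled points 9 lie below 0, and all 10 other lipid droplet and lipolysis genes lie below 0.

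Markers of other cell types were read in the same pups. The brown adipocyte markers (7 of 11 with a row) had summed linear signals of 18647 to 20859 in LBW and 17663 to 19405 in ABW pups. Most of each sum was *Cox8b* (13.97 to 14.24 log2), so that the sums say little of the other markers. *Ucp1*, the uncoupling protein that defines brown fat, was near or below the lower quartile in every pup (5.30 to 6.18). *Lhx8* of this list fell by 1.08 (SE 0.27, limma adjusted p = 0.276), but 4 of the 7 were higher in LBW and the median was 0.02. Of these, *Zic1* (0.26, SE 0.085) was higher without overlap of the groups. The preadipocyte and stromal markers (5 of 9) summed to 60100 to 61286 in LBW and 62547 to 66341 in ABW pups, lower in LBW without overlap. *Dlk1* (14.96 to 15.22 log2) was the brightest of them and weighs most in these sums. By limma 0 of them passed, also at an unadjusted p under 0.05 alone. The macrophage markers (6 of 8) summed to 23950 to 26089 in LBW and 22279 to 31748 in ABW pups. Of these, *C1qa*, *C1qb*, *Cd68* and *Csf1r* were lowest in ABW 1, the ABW pup in which the 9 adipocyte genes were lowest. *C1qc* was instead lowest in LBW 1 (12.64, beside 12.72 in ABW 1) and *Adgre1* in LBW 3 (8.97, beside 9.56 in ABW 1). The skeletal muscle markers (10 of 12) overlapped between the groups, at 221778 to 233072 in LBW and 212463 to 225510 in ABW pups. The endothelial markers (4 of 7) were at 15654 to 16707 in LBW and 17437 to 18751 in ABW pups, lower in LBW without overlap. Among them *Emcn* (-0.29, SE 0.11, limma adjusted p = 0.370) was lower without overlap, and *Pecam1* (0.06, SE 0.10) was higher in LBW.

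The bone markers moved opposite to the adipocyte genes. All 9 with a row (of 10) were higher in LBW, and 6 passed the threshold, where 2.38% of all genes passed and were higher. Their summed signals were 4254 to 59516 in LBW and 2057 to 2580 in ABW pups. Relative to the ABW mean, LBW 3 had the highest mean of the bone markers (4.48), LBW 1 had 3.48, LBW 2 had 0.64, and the ABW pups lay between -0.20 and 0.17. LBW 3 was also the pup with the lowest *Adipoq*, *Retn*, *Hcar1* and *Acvr1c*. LBW 1 and LBW 2, in contrast, had similar signals of the adipocyte genes and different signals of the bone markers. The part of bone or any other tissue in the differences of the adipocyte genes was not tested.

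**Figure D4:**
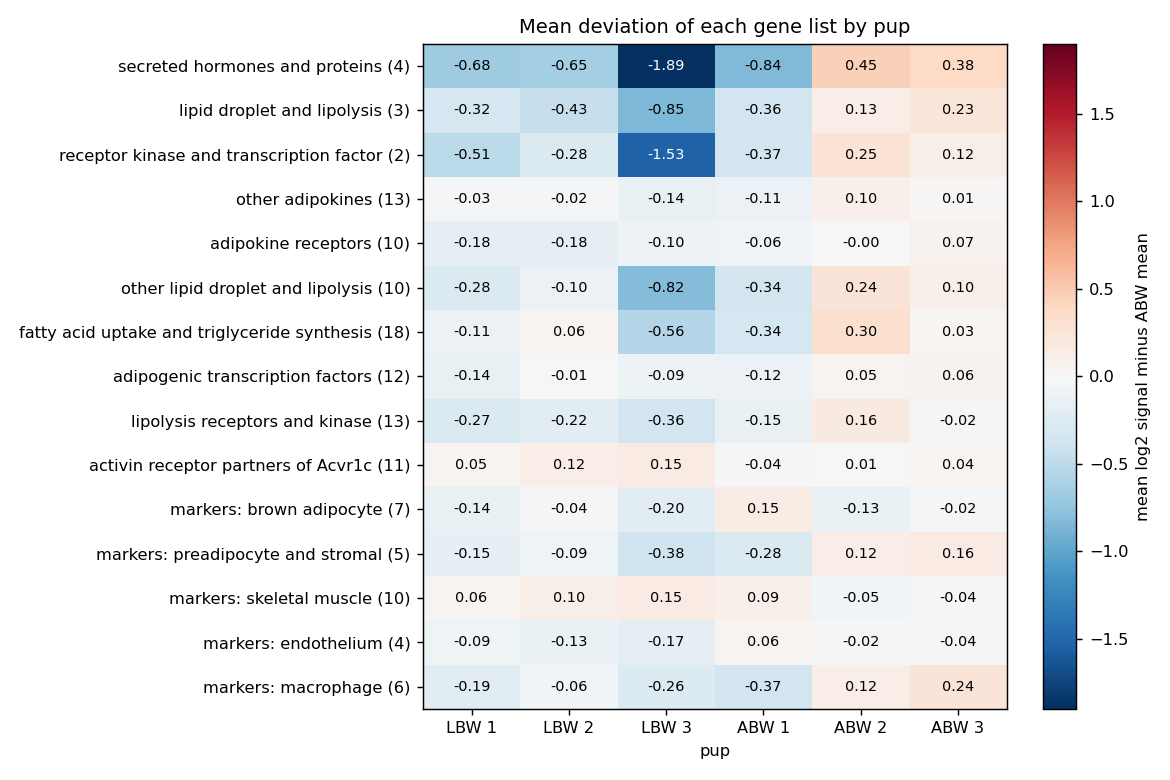
Mean log2 signal of each gene list relative to the mean of the ABW pups (colour and printed value) by pup, with the number of genes in parentheses; the bone markers are not drawn. The secreted genes are at -1.89 in LBW 3 and at 0.45 and 0.38 in ABW 2 and ABW 3, whereas the skeletal muscle markers stay between -0.05 and 0.15.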

How the data were processed

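RNA of 6 pups was hybridized to NimbleGen rat arrays (Cy3, 5 probes per transcript, build RGSC3.4). The authors deposited normalized log2 values, 1 per transcript and pup, made in R with Bioconductor. RMA is named in the submitters' processing notes without settings, and the background correction is not given in the sources used here. The statistics section names Student's test or ANOVA for the data in general, without saying which was run on the arrays. Arrays carry no count depth, and their number limits the precision.

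Rows were named through a RefSeq gene table (assembly GRCr8, 9747 of 26419 rows), and *Hcar1* through the study's supplement. Rows of a symbol were averaged, and lmFit and eBayes (limma 3.58.1, R 4.3.3, 2-sided, Benjamini-Hochberg adjustment over all 26299 features) gave differences and SEs. The fit was checked on simulated arrays. A fit of the single rows gave the transcript counts.

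The genes and lists were chosen with earlier results of these data known. Of each list the text could name every gene past the threshold, at most 3 others of largest difference and at most 2 of highest signal. *Lepr*, *Adipor2* and single markers were added after their values were seen. A gene that the rule covers is not reported here, though it is in the counts. Of other genes, the 8 profiles most like the 9 were named. Settings tried were the replicate block, each pup left out, quantile normalization, centring, a filter on the dimmest 25% of rows, intensity trend, robust variance, array weights, the brightest row of a symbol, the methods' test (Student's, same values), a fold change of at least 2, and other make-ups or means of the gene groups.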

Additional observations from a re-analysis of the deposited data

How the results depend on the processing

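All 9 genes kept a lower LBW mean with each pup left out, quantile normalization, centring and array weights. The last 3 settings moved no difference by more than 1 SD between pups. With n = 3, leaving out a pup cannot move a difference that far, so its size is given instead. The replicate block, the filter on dim rows and the brightest row of a symbol could not change these 9 differences. The block is balanced, and each gene has 1 row, which the filter kept. With a pup left out, the median of the 9 lay between -1.22 (without LBW 2) and -0.49 (without LBW 3), that of the secreted genes between -1.44 (without ABW 1) and -0.49 (without LBW 3), and that of the lipid genes between -0.25 and -0.16. The distance between secreted and lipid genes then lay between -1.22 (without LBW 2) and -0.302 (without LBW 3). Medians of the 9 and of the lipid genes without *Hcar1*, a setting chosen after seeing the data, were -0.67 and -0.16.

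With each pup left out in turn, 806 to 1555 transcripts and 5 to 13 of the 87 other fat cell genes passed the threshold. The methods' test called 586 transcripts and 4 of the 87, and a fold change of at least 2 left 336 and 3. Deviations from the group means correlated weakly between LBW and ABW pups of the same replicate number (0.087, 0.103 and 0.055). Pups of unlike number were not compared, so whether the numbers pair the pups was not tested. With the replicate numbers as a block, 1236 transcripts and 9 of the 87 passed. The distance of -0.972 cannot change with a balanced block. No background correction or slide block could be tried on values already processed. Signals near the bottom (*Lep* and *Cebpa*) and the top (*Fabp4*) of the scale limit what can be said of the size of their differences.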
